A study of Ailuropoda melanoleuca with 25 samples.

Results

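FGA and FGG encode the alpha and gamma chains of fibrinogen, and SERPINC1 encodes antithrombin. These 3 genes were chosen by name from the 25376 genes of the deposited table, and FGB, which encodes the beta chain, was read beside them because a fibrinogen molecule needs all 3 chains. The 25 libraries of messenger RNA came from 5 tissues of 5 giant pandas (heart, spleen, lung, kidney, and liver), each sequenced once in each animal, so libraries with the same number came from the same animal. Panda 1 was a female with the age label 27 and the cause of death ovarian cancer. Panda 2 was a female labelled 9 with the cause of death written as "ileac pssion". Pandas 3 and 4 were females and panda 5 a male, all labelled 0.5, and all had died of a coronavirus infection. The labels give the age without a unit, no panda was treated, and every tissue was taken after death. The age, the cause, and the year in which a panda died go together and cannot be told apart.

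Fibrinogen is a plasma protein made of pairs of alpha, beta, and gamma chains that hepatocytes assemble and secrete. Thrombin cuts short peptides from the alpha and beta chains, and the resulting fibrin monomers polymerize into the clot, which factor XIII then cross-links. Antithrombin is a plasma serpin that traps thrombin and activated factor X, and heparin speeds it. Fibrinogen is an acute phase protein, whose synthesis in the liver goes up in inflammation, while antithrombin acts on the other side of the balance.

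In the RefSeq annotation of another panda assembly, FGG, FGA, and FGB follow each other on the chromosome with no other gene between them, and PLRG1 is the next gene. SERPINC1 stands elsewhere in that annotation, between ZBTB37 and RC3H1. In the deposited table FGA is ENSAMEG00000018462, FGB ENSAMEG00000018459, FGG ENSAMEG00000018463, and SERPINC1 ENSAMEG00000015644. The lengths behind their values were 2724 bases for FGA, 1476 for FGB, 1338 for FGG, and 1398 for SERPINC1, which makes FGA the longest of the 4. All 4 lengths are multiples of 3, as were 87.7% of the recovered lengths of Ensembl genes, so they are coding lengths.

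Levels are given in FPKM, the fragments on a gene per kilobase of its length, scaled by the total of its library. The authors made no further normalization between libraries. The libraries held between 13149580 and 21383380 reads on genes, and those of the liver between 15925960 and 21383380. The whole number of reads behind each value was recovered, so that low levels can be read as numbers of reads. In such whole tissue, fewer cells of a type and less RNA per cell cannot be told apart.

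All 3 fibrinogen chains and antithrombin were liver genes in these pandas. FGG stood at 5762, 3549, 1042, 2747, and 12293 FPKM in the livers of pandas 1 to 5 (mean 5079). Liver 5 was the highest and liver 3 the lowest, an 11.8-fold range. FGB stood at 5292, 1850, 632, 1518, and 9193 FPKM in the same order (mean 3697). FGA stood at 3606, 1296, 146, 1109, and 2975 FPKM (mean 1826). SERPINC1 stood at 1934, 1338, 131, 1197, and 1287 FPKM (mean 1177). Liver 3 was the lowest for all 4 genes, and the highest liver was liver 5 for FGG and FGB and liver 1 for FGA and SERPINC1. Among all genes of a library ordered by FPKM, FGG held rank 9 in liver 5 and rank 164 in liver 3, and SERPINC1 ranged from rank 57 in liver 1 to rank 791 in liver 3.

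**Figure D1:**
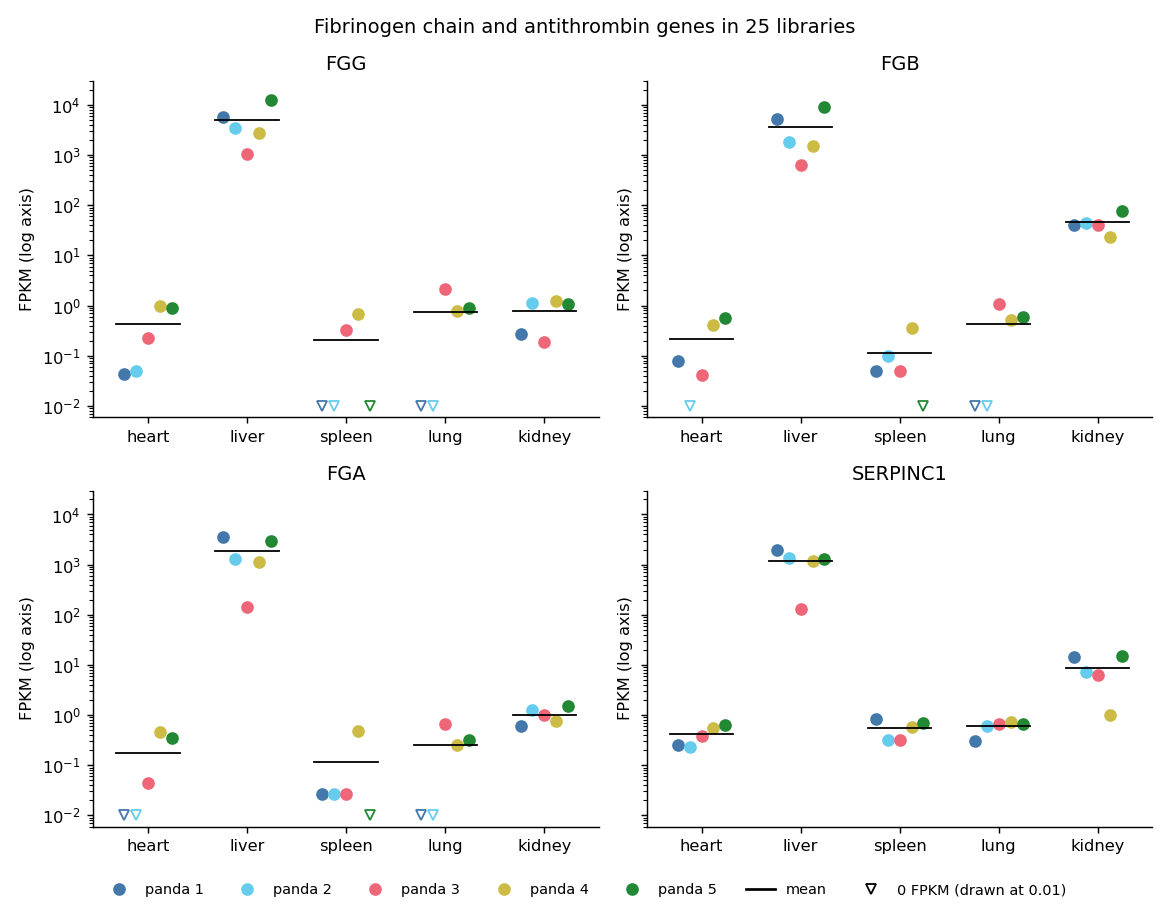
FPKM of FGG, FGB, FGA, and SERPINC1 (log axis) in each of the 25 libraries, grouped by tissue and coloured by panda. Black lines are the means of 5 libraries and open triangles mark libraries at 0. The livers lie far above every other tissue for all 4 genes, and the kidneys stand above heart, spleen, and lung for FGB, at a mean of 45.5 FPKM, and for SERPINC1, at a mean of 8.76 FPKM.

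The kidney was the tissue where the 4 genes parted. FGB was read at 40.3, 45.3, 40.9, 23.3, and 77.7 FPKM in kidneys 1 to 5, from between 558 and 1934 reads. FGG was read at 0.267, 1.12, 0.187, 1.24, and 1.06 FPKM there, from between 4 and 27 reads. FGA was read at 0.604, 1.25, 0.989, 0.769, and 1.5 FPKM, from between 23 and 69 reads. The beta chain was thus the highest of the 3 chains in 5 of 5 kidneys, where the gamma chain was the highest in the livers. SERPINC1 was read at 14.1, 7.18, 6.32, 1.01, and 15.2 FPKM in kidneys 1 to 5. Kidney 4 was the lowest for SERPINC1 and for FGB, and still above every heart, spleen, and lung library for both.

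In the heart, spleen, and lung the 4 genes left traces. FGG was read from 1, 1, 5, 22, and 21 reads in hearts 1 to 5, from 0, 0, 6, 14, and 0 reads in the spleens, and from 0, 0, 39, 15, and 19 reads in the lungs. Its highest level in these tissues was 2.12 FPKM, in lung 3. A library at 0 reads for FGG allows, at 3 reads, a level of up to 0.171 FPKM in lung 2 and 0.129 FPKM in spleen 5, and such limits cover counting error only. FGA reached 0.667 FPKM and FGB 1.08 FPKM, both in lung 3. The traces of the chains lay mostly in pandas 3 to 5, with 2, 0, and 0 reads of FGG in heart, spleen, and lung of pandas 1 and 2 together and 48, 20, and 73 reads in pandas 3 to 5. SERPINC1 was present in pandas 1 and 2 as well, and was read from between 5 and 17 reads in each of the 15 libraries, at 0.233 to 0.835 FPKM.

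In the 6 libraries of heart, spleen, and lung with at least 3 reads of every chain, FGG was the highest chain in 6, as in the livers. The full order of FGG above FGB above FGA, seen in 5 of 5 livers, held in 4 of the 6. Some genes that define other organs left traces along the same split and others did not. MYL2, the ventricular myosin light chain, was read at 0.307 and 0.126 FPKM in lungs 1 and 2 and at 11.1, 11.5, and 15.6 FPKM in lungs 3 to 5. SFTPC, the surfactant protein of the lung epithelium, was read at 0 and 0.111 FPKM in hearts 1 and 2 and at 1.96, 8.12, and 6.43 FPKM in hearts 3 to 5. TNNT2, the cardiac troponin T, did not follow this split. It was read at 8.68 and 1.88 FPKM in lungs 1 and 2 and at 4.09, 4.47, and 10.2 FPKM in lungs 3 to 5. SFTPC was read at 6.07 FPKM in spleen 2 and 0 FPKM in spleen 5. The summed cardiomyocyte, lung epithelium, and kidney tubule markers were examined in the 4 tissues outside their own, 12 sets in all. Pandas 3 to 5 were all above pandas 1 and 2 in 5 of them, and no share over all genes was computed. The part of reads from other organs in the traces of the chains was not tested.

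From liver to the other tissues the differences spanned several orders of magnitude. The mean of FGG in the liver was 11600 times that in the heart, 24800 times that in the spleen, 6710 times that in the lung, and 6540 times that in the kidney. The mean of FGA in the liver was 10700, 16100, 7340, and 1790 times the mean of those tissues, in the same order. For FGB the ratio was 16800, 33100, and 8420 against heart, spleen, and lung but 81.3 against the kidney. For SERPINC1 it was 2830, 2150, 1960, and, against the kidney, 134. The lowest liver was above the highest library of every other tissue for all 4 genes, by 8.13 times at the least for FGB and 8.59 times for SERPINC1, both against the kidney. The study listed all 4 under the liver on these libraries, so this is a description, and no share over all genes was computed.

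On the log2(FPKM + 1) scale the difference of liver minus kidney was 11.09 (SE 0.54) for FGG, 9.20 (SE 0.69) for FGA, 6.81 (SE 0.72) for SERPINC1, and 5.81 (SE 0.61) for FGB, with n = 5 in each tissue. Liver minus spleen was 11.63 (SE 0.54) for FGG, 10.06 (SE 0.70) for FGA, 9.16 (SE 0.61) for SERPINC1, and 11.11 (SE 0.60) for FGB. No p is given for these liver differences, since the 3 genes and FGB are among those that the study listed as tissue-specific on the same libraries. The study listed FGA and FGG under the liver, and FGB and SERPINC1 under both liver and kidney.

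Outside the liver, the kidney held the most SERPINC1 and FGA of the 4 tissues, given here as a description. No p is printed, since both genes passed the filter of a mean above 1 FPKM only through the kidney and the study listed SERPINC1 under the kidney on these libraries. SERPINC1 was higher in the kidney than in the heart by 2.48 on the log2(FPKM + 1) scale (SE 0.47), than in the spleen by 2.35 (SE 0.48), and than in the lung by 2.30 (SE 0.47), each in 5 of 5 pandas and with no overlap of the libraries. Of all genes above a mean of 1 FPKM in a tissue, 4.07% had every kidney above every heart, spleen, and lung library. The median gene differed by 0.76 between kidney and heart, -0.41 between kidney and spleen, and -0.43 between kidney and lung. After quantile normalization the difference of SERPINC1 from the heart was 1.85.

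FGA was higher in the kidney than in the heart by 0.79 (SE 0.21), than in the spleen by 0.86 (SE 0.20), and than in the lung by 0.70 (SE 0.22). The fold of so low a gene depends on the pseudocount. With 0.1 in place of 1 the differences were 2.39, 2.71, and 2.06. The kidneys and lungs overlapped for FGA, since kidney 1 (0.604 FPKM) was under lung 3 (0.667 FPKM). FGG had a mean under 1 FPKM in all 4 tissues and did not enter these fits. Its mean was 0.777 FPKM in the kidney and 0.757 FPKM in the lung. By its mean level FGG thus ordered as liver, kidney, lung, heart, and spleen, and its last 4 tissues overlapped with their neighbours. FGA followed the same order. SERPINC1 ordered as liver, kidney, lung, spleen, and heart, where the last 3 overlapped.

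FGB stood 5.18 (SE 0.32) above the heart, 5.29 (SE 0.31) above the spleen, and 4.97 (SE 0.35) above the lung in the kidney on the log2(FPKM + 1) scale, given as a description. Of the 9 hepatocyte markers with an identifier, of 11 in the list, 5 were at 1.06 FPKM or less in every kidney and 4 were higher. AHSG, the fetuin that stood at 928 to 15050 FPKM in the livers, was read at 0.132, 1.06, 0.231, 0.738, and 0.874 FPKM in kidneys 1 to 5. HPX, the heme-binding hemopexin, was at 0.0825 to 0.538 FPKM there, C8A of the membrane attack complex at 0 to 0.0670 FPKM, C8B at 0 FPKM in all 5, and ITIH2 at 0.0424 to 0.786 FPKM. APOA1 was read at 18.8 to 161 FPKM in the kidneys, TF, or transferrin, at 17.6 to 57.6 FPKM, APOC3 at 3.46 to 25.2 FPKM, and APOA2 at 0.608 to 6.42 FPKM. Over the 9 markers the summed level was 78.2 to 212 FPKM in the kidneys, 13840 to 51510 in the livers, 3306 to 4936 in the lungs, 298 to 1149 in the spleens, and 21.4 to 118 in the hearts. Most of the sum in lung and spleen was APOA1, an apolipoprotein, at 3276 to 4900 FPKM in the lungs and 279 to 1128 FPKM in the spleens. The sums of these 2 tissues thus rest on 1 marker and do not order the tissues by hepatocyte RNA. The part of hepatocyte RNA in the kidney levels of FGB and SERPINC1 was not tested beyond these values. The kidney tubule markers UMOD, FXYD2, LRP2, and SLC22A8 summed to 1017 FPKM in kidney 4 and to between 8104 and 11960 in the other 4 kidneys, and kidney 4 was also the kidney with the least SERPINC1 and FGB. The part of that lower tubule content was not tested. Without any 1 library, kidney 4 included, the difference of SERPINC1 stayed between 2.04 and 2.97 over the 3 tissues.

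The ratios of the genes within a library do not depend on its total, but they do depend on the gene lengths used for FPKM. FGA over FGG was 0.626, 0.365, 0.140, 0.403, and 0.242 in livers 1 to 5, so the gamma chain exceeded the alpha chain in 5 of 5 livers, by 3.17-fold at the geometric mean. FGB over FGG was 0.918, 0.521, 0.606, 0.552, and 0.748, and the gamma chain exceeded the beta chain by 1.53-fold. FGA over FGB was 0.681, 0.700, 0.231, 0.731, and 0.324, and the beta chain exceeded the alpha chain by 2.07-fold. The order of FGG, FGB, and FGA in FPKM, from high to low, thus held in 5 of 5 livers. It rests on the length of 2724 bases for FGA, and whether reads came from all of that length was not tested. In liver 1, FGA had 183177 reads, against 143771 for FGG and 145642 for FGB. In the other livers FGA had fewer reads than FGG. The level of SERPINC1 over that of FGG was 0.336, 0.377, 0.126, 0.436, and 0.105. Livers 3 and 5 had the least antithrombin message for their gamma chain message.

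The mean log2 ratio in the livers was -1.66 ± 0.82 (SD, n = 5) for FGA over FGG, -0.61 ± 0.34 (SD, n = 5) for FGB over FGG, -1.05 ± 0.77 (SD, n = 5) for FGA over FGB, and -2.09 ± 0.96 (SD, n = 5) for SERPINC1 over FGG. Each of the 4 ratios lay on the same side of 1 in every liver. The two-sided exact test by sign changes over the 5 pandas gave p = 0.0625 for each, adjusted p = 0.0625 over the 4, which is the smallest p that 5 pandas allow. Transcripts differ in how evenly reads cover them, so a ratio of FPKM between genes is not a ratio of molecules. SERPINC1 over FGG spread the most of the 4 ratios and FGB over FGG the least. FGA was lowest relative to both other chains in liver 3 and next lowest in liver 5.

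**Figure D2:**
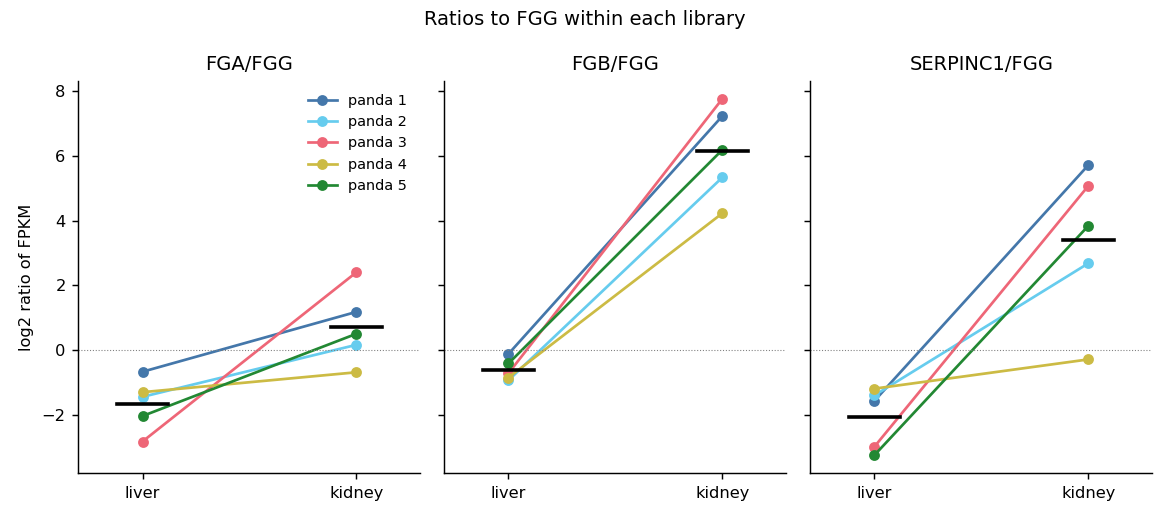
Log2 ratio of FPKM to that of FGG in the liver and kidney of each panda, with lines joining libraries of the same panda and black bars at the means of 5 libraries. FGB over FGG and SERPINC1 over FGG were higher in every kidney than in every liver, with mean differences of 6.76 and 5.49.

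In the kidney the chains did not keep the proportions of the liver. FGB over FGG was 151, 40.4, 218, 18.7, and 73.0 in kidneys 1 to 5. The mean log2 ratio was 6.15 ± 1.43 (SD, n = 5), 6.76 above that of the livers, with no overlap. SERPINC1 over FGG was 52.6, 6.41, 33.7, 0.815, and 14.3 in the kidneys, 5.49 above the livers on the log2 scale with no overlap. No permutation p is printed for these 2 ratios, since the study listed FGB and SERPINC1, but not FGG, under the kidney on these libraries. FGA over FGG was 2.26, 1.12, 5.28, 0.619, and 1.41, 2.37 above the livers (exact permutation test, p = 0.0159, adjusted p = 0.0159), and kidney 4 lay within the range of the livers.

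All 3 ratios were higher in the kidney in 5 of 5 pandas. By sign changes within pandas, which take the libraries as pairs of the same animal, each gave adjusted p = 0.0625 (exact), the smallest that 5 pairs allow. Without panda 2, 3, or 5 the test of FGA over FGG gave adjusted p = 0.0571 (exact permutation), with a difference of 1.66 to 2.56. These ratios rest on 4 to 27 reads of FGG per kidney. In kidney 3, with 4 reads, the 95% Poisson interval of the FGG level ran from 0.0510 to 0.479 FPKM, and in kidney 1, with 5 reads, from 0.0868 to 0.624 FPKM. In the lungs, at a like level of FGG, FGB stood under FGG, at 1.08, 0.510, and 0.600 FPKM in lungs 3 to 5. The study chose FGB and SERPINC1 for the kidney on these libraries, so the test of their ratios is not independent evidence.

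**Figure D3:**
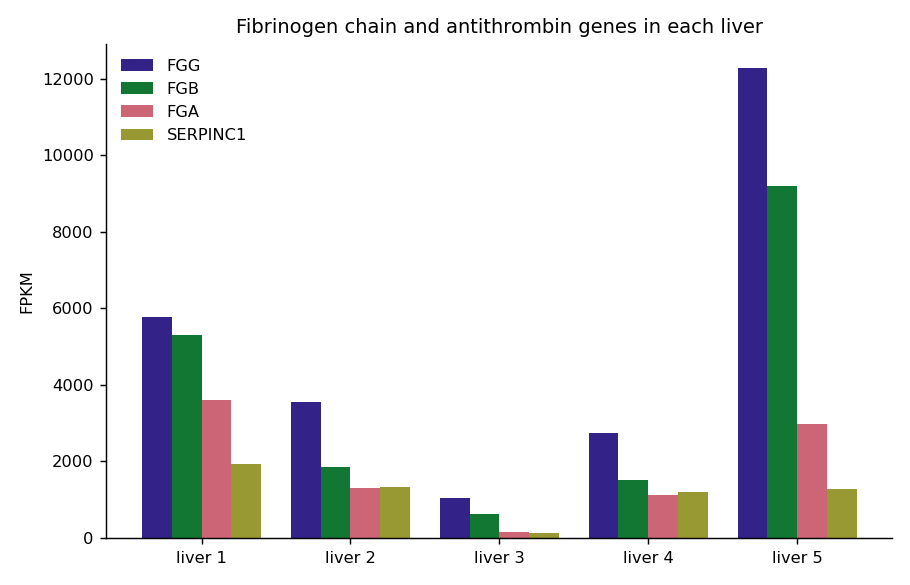
FPKM of FGG, FGB, FGA, and SERPINC1 in each of the 5 livers, 1 bar per gene and library. Liver 5 has the highest FGG and FGB, liver 1 the highest FGA and SERPINC1, and liver 3 the lowest of all 4.

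Among the livers the fibrinogen chains varied more than antithrombin once liver 3 was set aside. Over all 5 livers the SD of log2(FPKM + 1) was 1.83 for FGA, 1.53 for FGB, 1.32 for FGG, and 1.55 for SERPINC1. The median SD of the 1097 genes above a mean of 100 FPKM in the liver was 0.66, and 10.7% of those genes had an SD as large as that of FGA and 19.2% as large as that of FGG. Without liver 3 the SD was 1.24 for FGB, 0.95 for FGG, 0.85 for FGA, and 0.31 for SERPINC1, against a median of 0.41. The highest liver was then 6.06 times the lowest for FGB, 4.47 times for FGG, 3.25 times for FGA, and 1.62 times for SERPINC1.

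Livers 1 and 5 were the pair with the most of every fibrinogen chain, and livers 2 and 4 lay close together, with FGG at 3549 and 2747 FPKM and FGA at 1296 and 1109 FPKM. Panda 1 was the oldest and panda 5 one of the youngest, and the part of age in this order was not tested. The order was looked for in other genes after the values of the chains were seen. Livers 1 and 5 were the highest pair for 16 of the 25 coagulation genes with an identifier, and livers 2 and 4 for 3. Those 25 include the fibrinogen chains themselves, so part of the 16 was fixed in advance. Of all 7723 genes above a mean of 5 FPKM in the liver, livers 1 and 5 were the highest pair for 23.3% and livers 2 and 4 for 22.7%. CRP, C-reactive protein, stood at 8202 and 7659 FPKM in livers 1 and 5 and at 1547, 82.6, and 1474 FPKM in livers 2, 3, and 4. HPX stood at 4379 and 4047 FPKM in livers 1 and 5 and at 560, 57.3, and 557 FPKM in livers 2, 3, and 4. AHSG, which falls in the acute phase, stood at 15050 and 12100 FPKM in livers 1 and 5, so it was high in the same livers as CRP.

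Other genes had the reverse order. HAMP, which encodes the iron hormone hepcidin, stood at 3443 and 5953 FPKM in livers 1 and 5 and at 31400 and 57130 FPKM in livers 2 and 4. SERPINA3, the antichymotrypsin of the acute phase, stood at 2002 and 1902 FPKM in livers 1 and 5 and at 7383 and 8657 FPKM in livers 2 and 4. HRG, a plasma protein that binds heparin and plasminogen, stood at 1158 and 861 FPKM against 2513 and 3299 FPKM. Of the 11 acute phase genes with an identifier that go up in inflammation, livers 1 and 5 were the highest pair for 6 and livers 2 and 4 for 3. Of the 5 that fall, livers 1 and 5 were the highest pair for 4. With 5 livers no correlation or test of these orders was made.

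**Figure D4:**
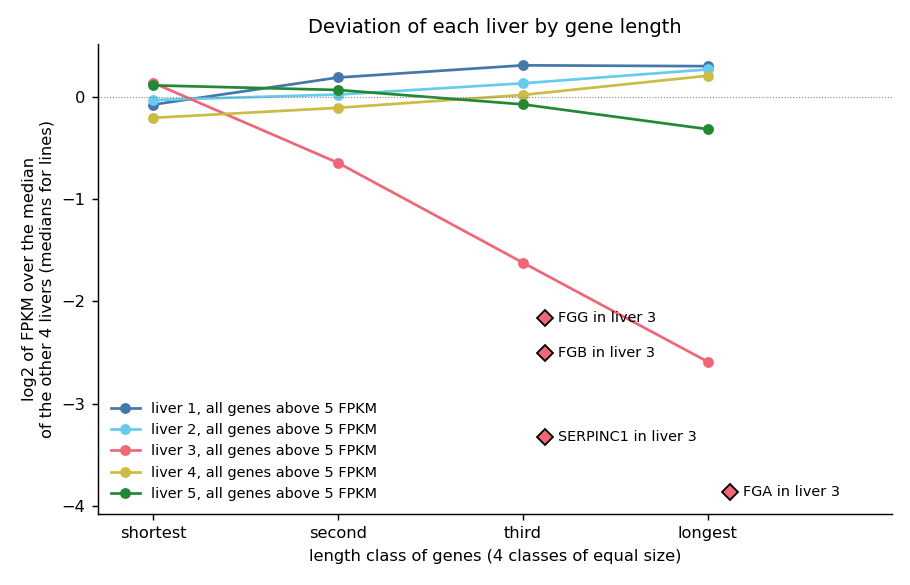
Median log2 of FPKM over the median of the other 4 livers, for 7723 genes above a mean of 5 FPKM split into 4 equal classes by length, 1 line per liver. Diamonds are the same value for FGG, FGB, SERPINC1, and FGA in liver 3. The line of liver 3 falls from 0.14 in the shortest genes to -2.59 in the longest. All 4 diamonds lie under it in their own length class, as many other genes do, since the line joins medians.

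Liver 3 stood apart from the other livers by gene length. Among genes above a mean of 5 FPKM in the liver, its median log2 deviation from the other livers was 0.14 in the shortest of 4 length classes of equal size, -0.64 and -1.62 in the next classes, and -2.59 in the longest. In the other 4 livers these medians lay between -0.31 and 0.31. FGG, FGB, and SERPINC1 belong to the third class and were lower in liver 3 by -2.16, -2.50, and -3.33 on the log2 scale, each beyond the -1.62 of that class. FGA belongs to the longest class and stood at -3.87, beyond its -2.59. These class values are medians, so many other genes of each class lie beyond them too. The share of genes as low as these 4 was not computed. Liver 3 was the lowest liver for 60.0% of the 7723 genes, with 71.6% in the third class and 85.6% in the longest. It was the lowest for 13 of the 14 coagulation genes in the third class and 10 of the 11 in the longest. SERPINA1, which encodes the alpha-1 antitrypsin and has a coding length of 1395 bases, 3 fewer than SERPINC1, went the other way, at 49210 FPKM in liver 3 and 10330 to 22710 FPKM in the others. The part of the length trend in the low level of the 3 genes in liver 3, and in its low FGA over FGG, was not tested. Without liver 3, the mean log2 of FGA over FGG was -1.37 and still under 0 in each of the 4 livers.

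The partners of fibrinogen and antithrombin in coagulation were read from a list of 42 genes, of which 25 had an identifier with a name, 22 of them beside FGA, FGG, and SERPINC1. Since the names come from the study's own list of tissue-specific genes, these counts are not independent evidence of a liver origin. A gene was called when its adjusted p fell under 0.05 (limma) and its log2 difference passed 2. Of the 22, 22 were called higher in the liver than in the heart, where 7.28% of all genes tested were. Against the spleen 20 were called higher, beside 3.94% of all genes, and against the lung 19, beside 3.34%. Against the kidney 20 were called higher, beside 2.35% of all genes. None was called lower. Their median log2 difference was 7.15 against the heart, 7.02 against the spleen, 6.49 against the lung, and 5.51 against the kidney, where the median of all genes was -0.14, -1.28, -1.28, and -0.89.

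The vitamin K-dependent proteins include thrombin and activated factor X, which antithrombin inhibits, and the anticoagulant proteins C and S. F2, prothrombin, whose product thrombin cuts fibrinogen, stood at 1429, 761, 44.4, 688, and 891 FPKM in livers 1 to 5 and under 1.3 FPKM in every kidney. F10, whose active form makes thrombin, had a mean of 359 FPKM in the liver and 0.211 FPKM in the kidney. F9, the factor of hemophilia B, had means of 357 and 0.0605 FPKM. PROS1, or protein S, was the widest of the group, at 241 FPKM in the liver and 18.3 FPKM in the kidney, and still called in the liver against all 4 tissues.

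In the contact pathway KNG1, the kininogen, was the most abundant, at a mean of 1647 FPKM in the liver and 136 FPKM in the kidney. F12, which starts the pathway, had a mean of 142 FPKM in the liver, with 4.23 FPKM in liver 3 and 138 to 276 FPKM in the others. F11 had a mean of 26.9 FPKM in the liver and was not called against the lung, with a difference of 1.13 (SE 0.30, adjusted p = 0.00445, limma). It became a call after quantile normalization (2.36) and with TMM factors (2.72). The cofactor F5 stood at 1.31 to 56.0 FPKM in the livers and 21.8 to 45.2 FPKM in the spleens and was not called against spleen, lung, or kidney. Its difference from the spleen was -0.79 (SE 0.71, adjusted p = 0.321, limma), and turned positive, at 0.46 after quantile normalization and 0.71 with TMM factors. Its difference from the lung was 0.96 (SE 0.70, adjusted p = 0.224, limma), and became a call at 2.34 after quantile normalization and 2.44 with TMM factors. F13B, the carrier subunit of factor XIII that cross-links fibrin, had means of 47.0 FPKM in the liver and 2.25 FPKM in the kidney.

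Among the inhibitors SERPINA1 was the most abundant, at a mean of 22530 FPKM in the liver, followed by SERPING1, the C1 inhibitor, at 1267 FPKM, and SERPINC1. SERPING1 was not called against the spleen, with a difference of 1.49 (SE 0.29, adjusted p = 0.000583, limma), and was called with TMM factors (3.15). SERPIND1, heparin cofactor II, which like antithrombin inhibits thrombin, stood at 804, 105, 87.6, 94.6, and 699 FPKM in livers 1 to 5. Its highest pair was livers 1 and 5, as for the fibrinogen chains, while SERPINC1 was highest in livers 1 and 2. A2M, a broad protease inhibitor, was not called against the lung, with a difference of 1.2 (SE 0.61, adjusted p = 0.0943, limma). With TMM factors the difference was 2.88 and a call, and with the panda as a block the adjusted p was 0.0137 (limma) at the same 1.2, short of the fold.

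Fibrin is dissolved by plasmin. Its precursor PLG stood at 2071, 792, 94.9, 719, and 1632 FPKM in livers 1 to 5, the same order of livers as FGA. CPB2, the carboxypeptidase that protects fibrin, stood at 316, 267, 200, 215, and 734 FPKM and was the highest in liver 5, as FGG was. SERPINF2, the plasmin inhibitor, was the gene of the list with most message in the kidney for its liver level after F5, at a mean of 105 FPKM in the kidney and 335 FPKM in the liver. Its difference of liver minus kidney was 1.11 (SE 0.98, adjusted p = 0.350, limma), and 2.16 and a call without liver 3 (adjusted p = 0.0119, limma).

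**Figure D5:**
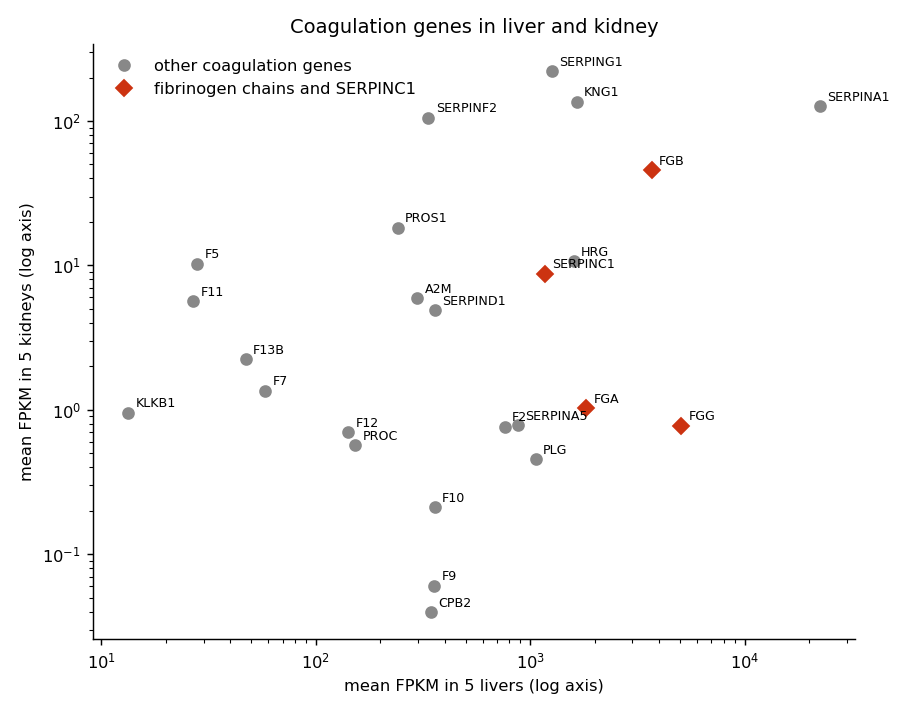
Mean FPKM in 5 livers against mean FPKM in 5 kidneys, both on log axes, for the 25 coagulation genes with an identifier. FGB and SERPINC1 (diamonds) stand at 45.5 and 8.76 FPKM in the kidney and FGA and FGG at 1.02 and 0.777 FPKM, although FGG has a higher mean in the liver than all of these genes but SERPINA1.

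Of the 25 genes, 15 had a mean above 1 FPKM in the kidney and 6 had every kidney above every heart, spleen, and lung library, beside 4.07% of all genes above a mean of 1 FPKM in a tissue. Those 6 were SERPINF2, KNG1, F13B, FGB, SERPINC1, and HRG. The names come from the study's list of tissue-specific genes on these libraries, where FGB and SERPINC1 stand under the kidney too. The count is therefore not independent evidence of a trait of the coagulation genes. The kidney held 31.3% of the liver mean for SERPINF2, 8.28% for KNG1, 4.78% for F13B, 1.23% for FGB, 0.744% for SERPINC1, 0.670% for HRG, 0.0560% for FGA, and 0.0153% for FGG. Kidney 4 was the lowest kidney for all 6. FGG and FGA were not among the 6 and had lower shares than FGB. Other genes of the 25 had shares as low, with CPB2 at 0.0115%, F9 at 0.017%, and PLG at 0.0428%.

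Genes with a pattern most like each of the 4 were taken by Pearson's r of log2(FPKM + 1) over the 25 libraries, which share the contrast of liver against the rest and are described without a test. For FGA they were PLG (r = 0.998), AHSG (r = 0.996), PROC (r = 0.995), FTCD (r = 0.993), and FGG (r = 0.993). For FGG they were AHSG (r = 0.998), CPB2 (r = 0.996), F9 (r = 0.996), FETUB (r = 0.995), and GYS2 (r = 0.994). All of these had a kidney mean under 1 FPKM. For SERPINC1 they were AMBP (r = 0.991), TM4SF4 (r = 0.988), CRP (r = 0.988), HRG (r = 0.987), and GC (r = 0.98), with kidney means from 2.41 to 17.9 FPKM. For FGB they were APOH (r = 0.986), HABP2 (r = 0.974), CCL16 (r = 0.972), SERPINC1 (r = 0.966), and F13B (r = 0.965), with kidney means from 2.25 to 208 FPKM. The genes named for FGA and FGG included none of those named for SERPINC1 and FGB. The kidneys were among the libraries behind r, so the kidney levels of these genes were part of their choice. CRP stood at 35.2, 6.61, 2.80, 1.28, and 43.5 FPKM in kidneys 1 to 5.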

How the data were processed

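Per the labels and the study's methods, libraries of mRNA were sequenced as read pairs. The authors aligned reads to ailMel1 with HISAT2, added genes with Cufflinks and Cuffcompare, counted reads with HTSeq in union mode, and deposited FPKM for 25376 genes. They called tissue-specific genes with DESeq, and its values were not used.

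Whole reads were recovered from the FPKM steps for 24205 of 24207 genes above 0 in a library, to within 0.05 reads (on simulated data, 23892 of 24205 genes were exact). Tissues were compared pair by pair in limma 3.58.1 under R 4.3.3 (limma-trend), using log2(FPKM + 1) of genes with a mean above 1 FPKM in either tissue, with Benjamini-Hochberg adjustment over all genes tested. A call needed an adjusted p under 0.05 and a log2 difference beyond 2. The planned tests of the members between kidney and heart, spleen, or lung were fitted and their p is not printed, since the genes passed the filter through the kidney alone. On simulated data for kidney and lung, 196 of 200 genes changed 8-fold were called and 1 unchanged gene was. Ratios were tested by exact sign changes or exact permutation with Python 3.11.15, numpy 2.4.6, and pandas 2.3.3, and scipy 1.17.1 gave intervals. Figures used matplotlib 3.10.9.

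Libraries of the same panda were taken as pairs, from the labels, in the sign changes within pandas and with the panda as a block. The permutation tests and the main fits did not use the pairing. After tissue means were removed, libraries of the same panda correlated at 0.060 to 0.521 (median 0.367, 49 of 50 above 0.1). Those of different pandas correlated at -0.469 to 0.377.

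The members and gene lists were chosen with earlier results of these data known. Named genes were the 3 members, FGB, in each role of the coagulation list those with the highest liver mean or a differing call, and the 5 genes most like each member. Names came from a supplementary table of the study that pairs 1776 identifiers in use here with a symbol, and genes without one were not analysed here. The alternatives tried were TMM factors, quantile normalization, no filter, a pseudocount of 0.1, a block for the panda, a fit of all 25 libraries, and each library left out. limma-voom on the recovered reads was added after seeing the data.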

Additional observations from a re-analysis of the deposited data

Results flagged for a closer look

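Spleen 4 stood apart from the other 4 spleens for FGA, at 0.486 FPKM from 20 reads, and for FGB, at 0.359 FPKM from 8 reads, by the gap to the nearest spleen over the range of all 5. Of 28 groups of 5 libraries examined, 2 had such a library, and chance alone sets about 1 in 20 apart. Spleen 4 also held the most SFTPC of the spleens, at 99.3 FPKM, against 0 to 6.07 FPKM in the others, and the part of reads from other organs was not tested.

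The ratio of FGA to FGG differed between kidney and liver by an exact permutation test, which took the libraries as unpaired. By sign changes within pandas each of the ratios of FGA, FGB, and SERPINC1 to FGG gave adjusted p = 0.0625 (exact), the smallest that 5 pairs allow. The study chose FGB and SERPINC1 for the kidney on these libraries, so the test of their ratios is not independent evidence. The log2 ratio of FGB to FGG was 6.76 higher in the kidney, that of SERPINC1 to FGG 5.49 higher, and that of FGA to FGG 2.37 higher, each in 5 of 5 pandas.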

How the results depend on the processing

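No test is given for the members between kidney and heart, spleen, or lung. SERPINC1 stood 1.85 above the heart after quantile normalization, 3.72 with a pseudocount of 0.1, and 3.95 with limma-voom on the recovered reads, chosen after seeing the data. FGA stood in the kidney 2.39, 2.71, and 2.06 above heart, spleen, and lung with a pseudocount of 0.1 and 3.90, 4.29, and 3.33 with limma-voom. It fell under the filter after quantile normalization, with TMM factors, and without kidney 2 or kidney 5, and has no value there. FGB stood in the kidney 7.44, 7.85, and 6.93 above them with a pseudocount of 0.1. F5 turned higher in the liver than in the spleen after quantile normalization (0.46) and with TMM factors (0.71).

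With the panda as a replicate block the differences of SERPINC1 (2.48, 2.35, and 2.30) and FGA (0.79, 0.86, and 0.70) were the same. The exact test by sign changes within pandas, also a block, left the kidney ratios at 2.37, 6.76, and 5.49 with p no lower than 0.0625, which 5 pairs cannot pass. The block moved no count of coagulation genes. With a panda left out, FGA over FGG in the kidney ranged from 1.66 to 2.81 above the liver.

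Of the 22 coagulation genes beside the members, 17 to 22 were called higher in the liver than in each tissue under the alternatives. Quantile normalization moved calls of higher genes from 13.2% to 52.4% of all calls between liver and spleen, from 11.5% to 50.3% between liver and lung, from 16.8% to 46.1% between liver and kidney, and from 80.0% to 56.9% between kidney and heart. It moved the median gene of liver minus spleen from -1.28 to -0.10. Levels of a few reads limit FGG outside the liver.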
